A study of Chlorocebus sabaeus with 10 samples.

Results

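The genes described here encode the chaperones, folding enzymes and signalling factors of the unfolded protein response (UPR), the program with which a cell adjusts the folding capacity of its endoplasmic reticulum (ER). They are 37 genes listed by symbol, and each was looked up in the table of estimated counts. A row was found for 36 of them among the 23352 genes of that table, each with 1 annotated transcript, and DNAJB11 was not analysed here. Of the 36, 13 were assigned to the ATF6 branch, 10 to the IRE1-XBP1 branch, 9 to the PERK-ATF4 branch and 4 to folding enzymes shared by all branches. This assignment was made by list and not from these data, and the groups do not measure the activity of a sensor. Enough counts for a test were present for 27 genes, and the other 9 are described by their counts.

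Livers came from 10 female vervet monkeys (Chlorocebus sabaeus), an Old World primate. All 10 had eaten chow before the study, after which 5 were fed a high fructose (HFr) diet and 5 stayed on chow for 6 weeks. The study describes the animals as age-matched, although the mean age it gives was higher on HFr than on chow, without a significant difference. It describes the tissue as liver biopsies, which were flash frozen. Each animal gave 1 RNA-Seq library, so the comparison of HFr with chow asks which liver transcripts differed between diets, and n is the number of animals. HFr1 to HFr5 and Chow1 to Chow5 denote single animals below.

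Proteins destined for secretion or for membranes are folded in the ER, and hepatocytes secrete most plasma proteins. When unfolded proteins accumulate, the chaperone BiP, the product of HSPA5, leaves the sensors in the ER membrane. ATF6 then travels to the Golgi, where proteases release its cytoplasmic part as a transcription factor for chaperone genes. IRE1, the product of ERN1, splices the XBP1 mRNA into the form that encodes an active transcription factor for genes of ER-associated degradation and secretion. PERK, the product of EIF2AK3, phosphorylates eIF2, which slows translation in general and raises that of ATF4, the activator of amino acid supply and stress genes such as DDIT3 and TRIB3. ATF6 cleavage, XBP1 splicing and eIF2 phosphorylation are not measured by counts per transcript.

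The libraries held 2977282 to 4992505 estimated counts, and mitochondrial transcripts took 34.8% to 73.6% of them. The mitochondrial share was 55.5% ± 11.8 (SD, n = 5) on HFr and 55.4% ± 16.5 (SD, n = 5) on chow, a difference of 0.072 percentage points (two-sided exact permutation test, p = 0.992). Nuclear transcripts were left with 864571 to 2657103 counts per animal, and HFr1, HFr3, Chow4 and Chow5 had fewer than 1200000. Normalized counts are given as CPM, counts scaled to a common library size after library sizes were corrected with TMM (trimmed mean of M values), so a count of 3 was worth 0.550 to 1.52 CPM, and the number of counts limits the precision for the low genes. All 9 hepatocyte markers examined, among them ALB, the albumin gene, were detected in every animal, with a summed level of 47170 to 73470 CPM on HFr and 38410 to 77580 CPM on chow. Levels of different genes were not compared, because no transcript lengths were used.

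At an unadjusted threshold, 4 of the 12 tested genes of the ATF6 branch were higher in HFr than in chow livers. These 4 encode ER chaperones or other ER stress proteins. None of the 5 tested genes of the PERK-ATF4 branch passed the threshold. With 4.29% of all transcripts passing, 5 genes are too few to show a difference between branches. Among the 27 tested UPR genes, HSPA5, CALR, SDF2L1, CRELD2 and NUCB2 had an unadjusted p under 0.05 in edgeR's quasi-likelihood test, all higher on HFr, and none was lower at that threshold. Of all 7948 tested transcripts, 341 (4.29%) had an unadjusted p under 0.05, with 2.06% higher and 2.23% lower on HFr. After Benjamini-Hochberg adjustment over the 7948 transcripts, edgeR left 0 UPR genes and 0 transcripts in all (0%) under 0.05. The fitted change was above 0 for 20 of the 27 UPR genes and for 49.8% of all tested transcripts. The median log2 fold change was 0.22 for the UPR genes and -0.0007 for all transcripts. In these bulk samples a change in the number of cells of a type cannot be told apart from a change of RNA per cell.

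By branch, 4 of 12 tested genes of the ATF6 branch had an unadjusted p under 0.05, and the median log2 fold change of this branch was 0.34. In the IRE1-XBP1 branch this held for 1 of 8 genes (NUCB2), with a median of 0.06. The PERK-ATF4 branch had 0 of 5 genes under the unadjusted threshold in edgeR and a median of -0.11. Neither of the 2 tested shared folding enzymes passed it, and their median was 0.21. The differences between branches were not tested. In a fit without the 4 animals with fewer than 1200000 nuclear counts (n = 3 per diet), NUCB2 alone of the 27 genes had an unadjusted p under 0.05. Of all 9039 transcripts tested in that fit, 3.37% had such a p, and the median log2 fold change over the 27 genes was 0.16. Normalization by library size alone left 3 of the 5 (SDF2L1, CRELD2 and NUCB2), where 1.55% of all transcripts had such a p.

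**Figure D1:**
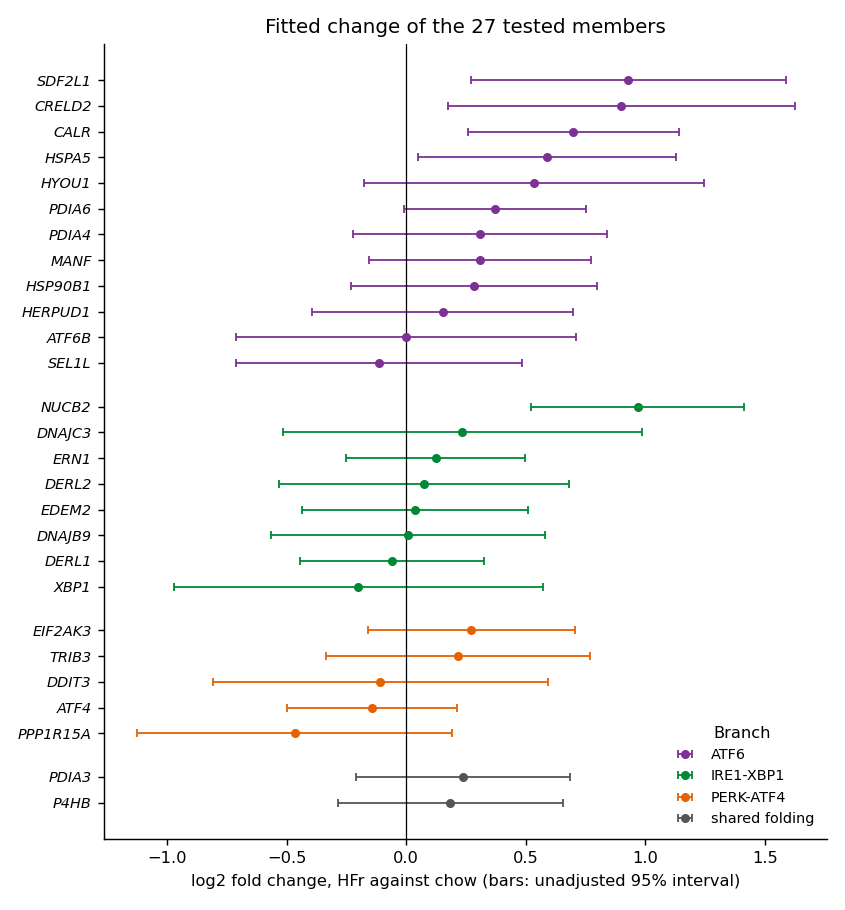
Fitted log2 fold change (HFr against chow, n = 5 animals per diet) of the 27 tested UPR genes, grouped by branch, with points at the estimate and bars for the unadjusted 95% interval. The intervals of HSPA5, CALR, SDF2L1, CRELD2 and NUCB2 lie above 0, and the 5 genes of the PERK-ATF4 branch lie between -0.47 and 0.27.

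Of the transcripts of the sensors themselves, ERN1, EIF2AK3 and ATF6B were tested and did not pass the unadjusted threshold. ERN1 (chromosome 16, 57145191 to 57236230, ChlSab1.1), the gene of IRE1, had 36.5, 31.0, 28.2, 23.6 and 32.8 CPM in HFr1 to HFr5 and 30.4, 28.03, 33.6, 24.8 and 21.6 CPM in Chow1 to Chow5. HFr1 was highest and Chow5 lowest, and the diets overlapped over most of their range. Its log2 fold change was 0.12, with a standard error (SE) of 0.17 (95% interval -0.25 to 0.50, edgeR unadjusted p = 0.490).

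EIF2AK3 (chromosome 14, 18136291 to 18209457), the gene of PERK, had 9.04, 11.7, 15.3, 10.4 and 12.5 CPM in HFr1 to HFr5 and 9.37, 11.6, 10.3, 7.58 and 9.19 CPM in Chow1 to Chow5. Of the HFr animals, 4 lay above the chow mean and HFr1 lay below every chow animal except Chow4. The difference was 0.27 on the log2 scale (SE 0.20, 95% interval -0.16 to 0.71, edgeR unadjusted p = 0.198). ATF6 (chromosome 20, 2117982 to 2304027), a sensor and a transcription factor in the same protein, was not tested because of low counts. It had 2.64, 3.59, 3.63, 2.89 and 3.17 CPM in HFr1 to HFr5 and 3.20, 1.97, 7.70, 5.05 and 1.38 CPM in Chow1 to Chow5. The HFr values lay within the chow range, and the ends of that range rested on 42 counts in Chow3 and 3 counts in Chow5. ATF6B, the paralog of ATF6, had a mean of 12.2 CPM on either diet, with 8.47 to 15.7 CPM on HFr and 5.51 to 17.5 CPM on chow.

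Among the transcription factors, XBP1 (chromosome 19, 11669374 to 11677208) had 389, 264, 370, 190 and 555 CPM in HFr1 to HFr5 and 225, 261, 825, 388 and 331 CPM in Chow1 to Chow5. Chow3 was the highest animal by a wide margin, HFr4 was the lowest, and the other 8 animals of the 2 diets were interspersed. On the log2 scale HFr minus chow was -0.20 (SE 0.36, edgeR unadjusted p = 0.587) and changed sign to 0.23 without Chow3. The count adds spliced and unspliced XBP1 mRNA and does not tell them apart.

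ATF4 (chromosome 19, 22091667 to 22095230) varied little between animals, with 215, 209, 226, 188 and 237 CPM in HFr1 to HFr5 and 193, 219, 250, 274 and 250 CPM in Chow1 to Chow5. All 5 HFr animals lay below the chow mean of 237 CPM ± 31.4 (SD, n = 5), although the ranges overlapped. The fitted change was -0.14 on the log2 scale (SE 0.17, 95% interval -0.50 to 0.21, edgeR unadjusted p = 0.405), and it stayed between -0.21 and -0.06 under all 27 alternative fits. DDIT3 (chromosome 11, 53424868 to 53425576) encodes CHOP, the factor linked to cell death under prolonged ER stress. It had 7.91, 8.30, 4.03, 9.997 and 10.1 CPM in HFr1 to HFr5 and 13.3, 4.82, 12.5, 7.58 and 5.05 CPM in Chow1 to Chow5. Chow1 and Chow3 were the highest animals and HFr3 the lowest, from as few as 10 counts. The log2 fold change of DDIT3 was -0.11 (SE 0.33, 95% interval -0.81 to 0.59, edgeR unadjusted p = 0.747).

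**Figure D2:**
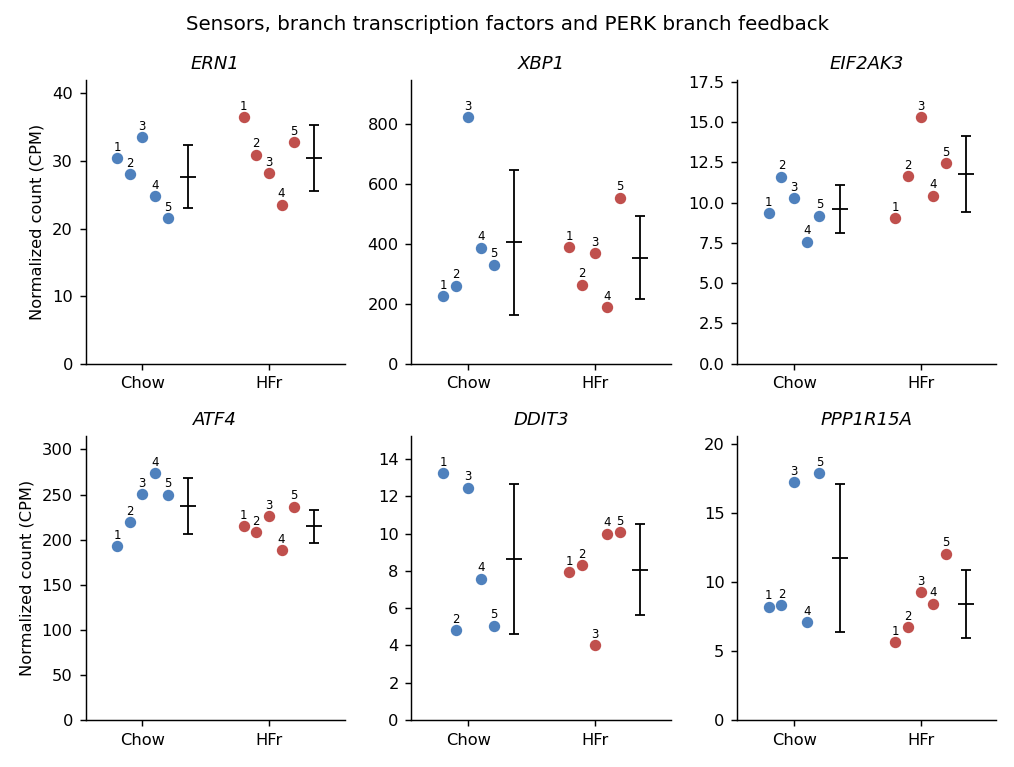
Normalized counts (CPM, linear axes from 0) of ERN1, XBP1, EIF2AK3, ATF4, DDIT3 and PPP1R15A in each animal, with the animal's number beside its point and the bar giving the mean ± SD of each diet (n = 5). The diets overlap in all 6 genes, and Chow3 stands above the other animals for XBP1 at 825 CPM.

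HSPA5 (chromosome 12, 12920710 to 12927431) encodes BiP, the ER chaperone that also keeps the sensors inactive and whose transcription is a standard readout of ATF6 activity. It had 199, 135, 153, 79.1 and 227 CPM in HFr1 to HFr5 and 91.0, 91.8, 136, 108 and 99.7 CPM in Chow1 to Chow5. HFr1, HFr3 and HFr5 exceeded every chow animal, HFr2 fell just under Chow3, and HFr4 was the lowest of the 10 animals. The mean was 158 CPM ± 57.4 (SD, n = 5) on HFr and 105 CPM ± 18.5 (SD, n = 5) on chow, a 1.503-fold difference (log2 fold change 0.59, SE 0.25, edgeR unadjusted p = 0.0348, adjusted p = 0.9996). HSPA5 kept an unadjusted p under 0.05 in 14 of 27 alternative fits, and its log2 fold change was 0.42 without HFr5 and 0.75 without HFr4.

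CALR (chromosome 6, 11618396 to 11623792) encodes calreticulin, the calcium-binding lectin chaperone of glycoproteins. It had 52.0, 43.3, 51.6, 41.5 and 80.9 CPM in HFr1 to HFr5 and 32.9, 32.0, 42.4, 30.8 and 27.1 CPM in Chow1 to Chow5. HFr5 stood well above the rest, and the only overlap was HFr4 lying just below Chow3. The mean was 53.9 CPM ± 15.8 (SD, n = 5) on HFr and 33.0 CPM ± 5.66 (SD, n = 5) on chow (log2 fold change 0.70, SE 0.21, edgeR unadjusted p = 0.00434, adjusted p = 0.9996). Without HFr5 the log2 fold change of CALR was 0.50.

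SDF2L1 (chromosome 19, 4465797 to 4467761) encodes a small ER protein found in complexes with BiP and its co-chaperones. It had 13.6, 6.28, 14.9, 7.78 and 10.9 CPM in HFr1 to HFr5 and 4.11, 3.72, 7.70, 7.58 and 4.60 CPM in Chow1 to Chow5. HFr2 was the only HFr animal to fall below a chow animal, under Chow3 and Chow4. SDF2L1 differed by 0.93 on the log2 scale (SE 0.31, edgeR unadjusted p = 0.00906, adjusted p = 0.9996), and each value rested on 10 to 55 counts.

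CRELD2 (chromosome 19, 32420370 to 32430904), the gene of an ER protein that is also secreted and is induced by ER stress, had 40.7, 12.1, 19.4, 12.2 and 23.9 CPM in HFr1 to HFr5 and 11.4, 10.7, 6.79, 17.2 and 12.9 CPM in Chow1 to Chow5. HFr1, HFr3 and HFr5 exceeded all chow animals, whereas HFr2 and HFr4 lay within the chow range. CRELD2 differed by 0.90 on the log2 scale (SE 0.34, edgeR unadjusted p = 0.0188, adjusted p = 0.9996). Without HFr1 its log2 fold change was 0.55, with an unadjusted p of 0.0811 in edgeR.

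**Figure D3:**
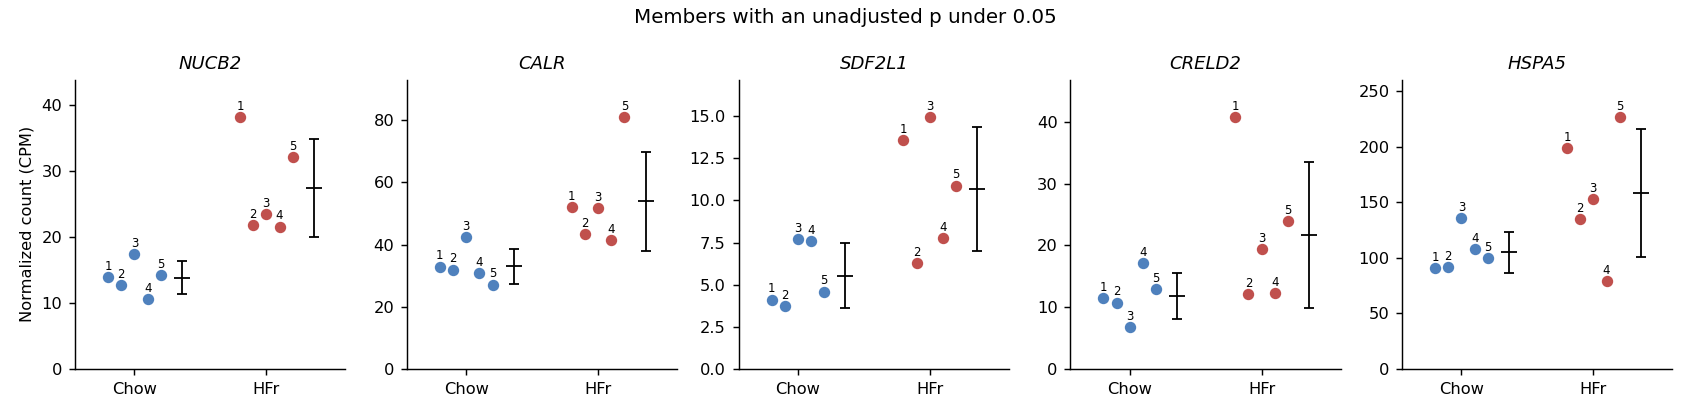
Normalized counts (CPM, linear axes from 0) of the 5 UPR genes with an unadjusted p under 0.05, in each animal, with the animal's number beside its point and the mean ± SD of each diet (n = 5). NUCB2 shows no overlap between the diets, and HFr4 lies lowest of all animals for HSPA5 at 79.1 CPM.

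The other tested genes of the ATF6 branch differed by less, and none of them passed the unadjusted threshold. PDIA6, a disulfide isomerase that also acts on the sensors, came nearest, with 72.2 to 115 CPM on HFr and 63.3 to 85.8 CPM on chow (log2 fold change 0.37, SE 0.18, edgeR unadjusted p = 0.0543). HYOU1, the nucleotide exchange factor of BiP, had a log2 fold change of 0.54 (SE 0.33), with HFr1 and HFr5 at 21.5 and 18.8 CPM and the other 3 HFr animals within the chow range of 6.57 to 12.4 CPM. The disulfide isomerase PDIA4 and the chaperone HSP90B1 (GRP94) had log2 fold changes of 0.31 (SE 0.25) and 0.28 (SE 0.24), and MANF, a secreted factor that stabilizes BiP complexes, had 0.31 (SE 0.22). The groups overlapped for each of these genes.

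HERPUD1 and SEL1L belong to ER-associated degradation, in which misfolded proteins are passed to the cytosol for breakdown. HERPUD1, an adaptor of the ubiquitin ligase complex, had 215 CPM in HFr1 against 86.0 to 116 CPM in the other HFr animals and 85.9 to 145 CPM on chow. Its log2 fold change was 0.15 (SE 0.25) and turned to -0.15 without HFr1. SEL1L, the partner of the ligase, had 84.6 to 255 CPM on HFr and 113 to 216 CPM on chow, a log2 fold change of -0.11 (SE 0.28).

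In the IRE1-XBP1 branch, NUCB2 (chromosome 1, 47634531 to 47689011) was the only UPR gene without overlap between the diets. It encodes nucleobindin 2, a calcium-binding protein of the secretory pathway and the precursor of nesfatin-1, and is not a chaperone. NUCB2 had 38.1, 21.8, 23.4, 21.5 and 32.0 CPM in HFr1 to HFr5 and 13.9, 12.7, 17.4, 10.6 and 14.3 CPM in Chow1 to Chow5. Every HFr animal lay above every chow animal. Of all tested transcripts, 0.214% were higher on HFr without overlap and 0.327% were lower without overlap.

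The mean of NUCB2 was 27.4 CPM ± 7.37 (SD, n = 5) on HFr and 13.8 CPM ± 2.49 (SD, n = 5) on chow, a 1.96-fold difference (log2 fold change 0.97, SE 0.21, edgeR unadjusted p = 0.000366, adjusted p = 0.970). Its unadjusted p stayed under 0.05 in all 27 alternative fits, with log2 fold changes of 0.78 to 1.07. The adjusted p of NUCB2 ranged from 0.088 to 1 over these fits.

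The other tested genes assigned to the IRE1-XBP1 branch had smaller fitted changes than NUCB2. DNAJB9 (ERdj4), a co-chaperone that returns BiP to IRE1, had 14.0 to 41.6 CPM on HFr and 24.0 to 45.3 CPM on chow, a log2 fold change of 0.0069 (SE 0.27). The channel components DERL1 and DERL2 had log2 fold changes of -0.06 (SE 0.18) and 0.08 (SE 0.28), and EDEM2, which trims the mannose residues of misfolded glycoproteins, had 0.04 (SE 0.22). DNAJC3 (p58IPK), a co-chaperone of BiP and an inhibitor of eIF2 kinases, rested on 6 to 27 counts per animal and had a log2 fold change of 0.23 (SE 0.35). It passed the filter on low counts with 4 HFr animals and 2 chow animals over the minimum, whereas every other tested UPR gene had all 10 animals over it.

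In the PERK-ATF4 branch, of the tested targets of ATF4 and CHOP, DDIT3 and PPP1R15A had fitted changes below 0 and TRIB3 above 0. TRIB3, a pseudokinase that restrains AKT and ATF4, had 8.07 to 17.5 CPM on HFr and 8.09 to 18.9 CPM on chow (log2 fold change 0.22, SE 0.26). PPP1R15A (GADD34), which directs the dephosphorylation of eIF2 and so ends the block of translation, had 5.65, 6.73, 9.28, 8.44 and 12.1 CPM in HFr1 to HFr5 and 8.23, 8.32, 17.2, 7.08 and 17.9 CPM in Chow1 to Chow5. Chow3 and Chow5 were the highest animals, and 4 of 5 HFr animals lay below the chow mean. The log2 fold change of PPP1R15A was -0.47 (SE 0.31, edgeR unadjusted p = 0.152).

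The stress factor ATF3 was low on HFr, with 0, 1, 1, 4 and 3 counts in HFr1 to HFr5, and had 2, 6, 34, 0 and 0 counts in Chow1 to Chow5. Chow3 thus held 34 of the 42 chow counts, and Chow4 and Chow5 had none, which at 3 counts allows up to 1.52 and 1.38 CPM in these libraries. ATF3 was too low for the tested set. When every transcript with a count was tested, its log2 fold change was -1.96 (SE 0.86, edgeR unadjusted p = 0.0317, adjusted p = 0.838). In that fit 4.71% of 16066 transcripts had an unadjusted p under 0.05.

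ASNS, the asparagine synthetase that ATF4 activates, had 1 to 3 counts per HFr animal and 8, 0, 11, 0 and 6 counts in Chow1 to Chow5. PPP1R15B, the constitutive counterpart of GADD34, and ERO1A, an oxidase that recharges disulfide isomerases, had at most 4 and 5 counts in any animal. In the fit of every transcript with a count, ASNS had a log2 fold change of -1.40 (SE 0.80, edgeR unadjusted p = 0.0916, adjusted p = 0.838). In that fit PPP1R15B had -1.07 (SE 1.08, edgeR unadjusted p = 0.333) and ERO1A -0.04 (SE 0.75, edgeR unadjusted p = 0.957).

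Of the folding enzymes shared by the branches, P4HB, the main protein disulfide isomerase, had 638 to 878 CPM on HFr and 473 to 975 CPM on chow (log2 fold change 0.18, SE 0.22). PDIA3 (ERp57), the isomerase that works with calreticulin and calnexin, had 170 to 299 CPM on HFr and 152 to 237 CPM on chow (log2 fold change 0.24, SE 0.21). CANX, the gene of calnexin, had 6 to 18 counts per HFr animal and 2 to 23 per chow animal, and the oxidase ERO1B had 2 to 7 and 2 to 11. EDEM1 and the ubiquitin ligase SYVN1 (HRD1) of the IRE1-XBP1 branch were as low, with sums of 43 and 58 counts over the HFr animals and 36 and 51 over the chow animals. None of these 4 low genes had an unadjusted p under 0.05 when every transcript with a count was tested.

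The UPR genes varied between animals of the same diet as well as between diets. Each gene was set to its median over the 10 animals on the log2(CPM + 1) scale, and the median deviation over the 27 genes was taken in each animal. It was 0.15, -0.05, 0.18, -0.23 and 0.42 in HFr1 to HFr5 and -0.34, -0.08, 0.12, -0.07 and -0.10 in Chow1 to Chow5. HFr5 was above the gene median for all 27 genes, HFr1 and HFr3 were high, and HFr4 and Chow1 were low.

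For the 12 tested genes of the ATF6 branch the spread was wider, with deviations of 0.53, -0.001, 0.33, -0.25 and 0.51 in HFr1 to HFr5 and -0.37, -0.21, 0.01, -0.01 and -0.06 in Chow1 to Chow5. HFr1 and HFr5 were the highest, and HFr4 lay below every chow animal except Chow1. Over all 7948 transcripts the same deviation lay between -0.0099 and 0.0057 in every animal. HFr1 was the highest of the 10 animals for 7 UPR genes, HFr3 for 6 and HFr5 for 5, while HFr2 and HFr4 were so for 0. Of all transcripts, HFr1 was highest for 7.61%, HFr3 for 7.50%, HFr5 for 7.86% and HFr4 for 14.0%.

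**Figure D4:**
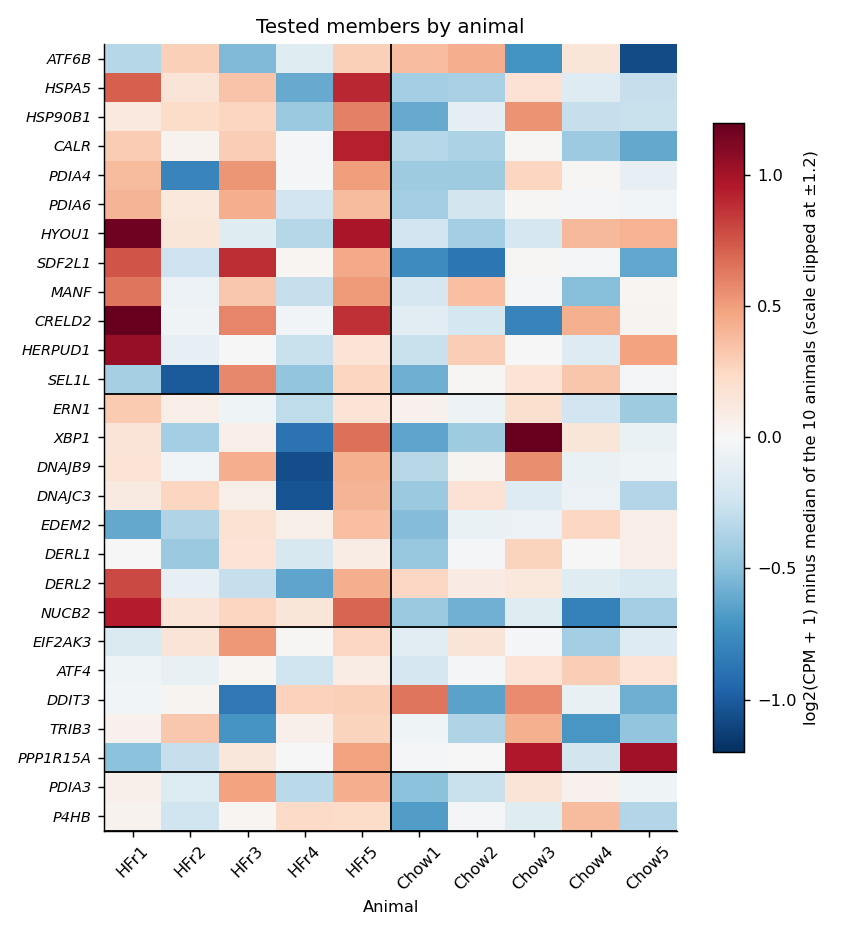
Deviation of each tested UPR gene from its median over the 10 animals, on the log2(CPM + 1) scale with colors clipped at 1.2, by branch (rows, from ATF6 at the top to shared folding enzymes) and animal (columns). HFr1, HFr3 and HFr5 are mostly above the median in the ATF6 branch, whereas HFr4 and Chow1 are mostly below.

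Relations within the list were described against HSPA5 across animals. The median Pearson correlation of the other 26 tested UPR genes with HSPA5 was 0.652 over the 10 animals, against 0.00354 over all transcripts, and 24 of the 26 correlations were positive. It was 0.613 after the diet means were removed and 0.357 without HFr5 and HFr1, the animals farthest from the median of HSPA5. Of all transcripts, 2.19% had an r with HSPA5 at or above 0.652. After adjustment over the 26 genes, 9 had a permutation p under 0.05 by Pearson's r, and 4 of these (HSP90B1, PDIA6, DNAJB9 and PDIA3) also had it by Spearman's rho. The other 5 were CALR, HYOU1, SDF2L1, DNAJC3 and NUCB2, which is not a chaperone, while PDIA4, MANF, CRELD2 and P4HB did not pass by either measure. These permutation tests were not run over all transcripts, so the counts have no such share beside them. The points are the 10 libraries, which differ in depth.

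PDIA6 was closest to HSPA5, with Pearson's r of 0.899 (permutation p = 0.00037, adjusted p = 0.00962), Spearman's rho of 0.927 (permutation p = 0.00035, adjusted p = 0.0091) and an r of 0.870 without HFr5 and HFr1. HSP90B1 had r = 0.823 (permutation p = 0.00429, adjusted p = 0.0372) and rho = 0.855 (permutation p = 0.00298, adjusted p = 0.0194), with r = 0.864 without these 2 animals. XBP1 had r = 0.651 (permutation p = 0.0406, adjusted p = 0.0761) and rho = 0.855 (permutation p = 0.00287, adjusted p = 0.0194), and Chow3 lay apart from the other animals. CRELD2 and HYOU1 rested on the 2 animals, with r falling from 0.653 to 0.112 and from 0.748 to 0.225 without them.

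No gene of the PERK-ATF4 branch passed by either measure. Pearson's r with HSPA5 was 0.263 for ATF4 (rho 0.418, permutation p = 0.457 and 0.233, adjusted p = 0.566 and 0.318), 0.0283 for DDIT3 (rho -0.0667, permutation p = 0.937 and 0.865, adjusted p = 0.938 and 0.900) and -0.0286 for PPP1R15A (rho 0.0182, permutation p = 0.938 and 0.973, adjusted p = 0.938 and 0.973). After the diet means were removed, r was 0.643 for ATF4, 0.0586 for DDIT3 and 0.235 for PPP1R15A, so the value for ATF4 depended on that step. With XBP1 as the reference the median r of the UPR genes was 0.423, with 0.608 without Chow3 and HFr4 and 0.518 within diets. Of all transcripts, 15.3% had an r with XBP1 at or above 0.423. With ATF4 as the reference the median was 0.290, with 0.207 without Chow4 and HFr4, 0.536 within diets and 0.741 when CPM was scaled by library size only. With TMM scaling, an r with ATF4 at or above 0.290 was found for 25.2% of all transcripts. No such share is given for library size only, so the 0.741 cannot be read as particular to the UPR genes. For neither XBP1 nor ATF4 did any of the 26 genes have an adjusted permutation p under 0.05 by Pearson's r, and by Spearman's rho HSPA5 and PDIA3 did with XBP1 (rho 0.855, adjusted permutation p = 0.0369 for each). The transcripts most like HSPA5 among all those tested were TRAM1, a component of the translocation channel into the ER (r = 0.906), and PDIA6.

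**Figure D5:**
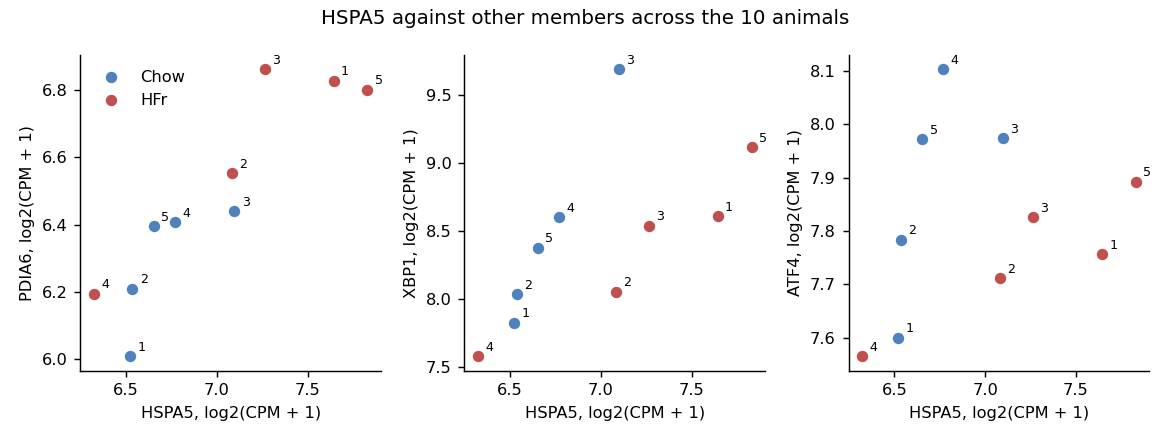
PDIA6, XBP1 and ATF4 against HSPA5 in the 10 animals, all on the log2(CPM + 1) scale, with chow in blue, HFr in red and the animal's number beside its point. PDIA6 follows HSPA5 (r = 0.899), XBP1 does so except in Chow3 (r = 0.651), and ATF4 has r = 0.263, or 0.643 within diets.

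A wider list of 101 other symbols of the pathway was set beside these genes, and 61 of them were tested. None of the 61 had an unadjusted p under 0.05 or groups without overlap in the edgeR fit. Of all transcripts, 4.29% had such a p, and 0.214% were higher and 0.327% lower without overlap. Of the 61, 30 had a fitted change above 0 and 31 below, and the median log2 fold change was -0.01. ER folding enzymes outside the 37 genes, such as oxidoreductases and glycoprotein glucosyltransferases, had a median of 0.02 over 18 tested genes. Genes of ER-associated degradation had a median of 0.02 over 13, and further ATF4 targets had -0.07 over 12. The kinases and initiation factors around eIF2 had -0.13 over 4 genes, the proteases and related factors 0.02 over 8, and IRE1 signalling and cell death genes -0.02 over 6.

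Markers of other liver cells and signs of sampling were set beside these results, and their part in the UPR values was not tested. Of the immediate early genes, which respond within minutes to handling and stress, 8 of 9 tested had a fitted change below 0. MYC and KLF4 were lower on HFr at the unadjusted threshold, with log2 fold changes of -1.04 and -0.90 (edgeR unadjusted p = 0.0295 and 0.0123). The summed level of all 13 with a row was 330, 298, 560, 107 and 507 CPM in HFr1 to HFr5 and 519, 1057, 920, 208 and 386 CPM in Chow1 to Chow5. HFr4, low for most chaperones, was also the lowest here, and Chow3, high for XBP1 and ATF3, was among the highest. Other animals went differently. Chow2 had the highest sum and Chow4 the next to lowest, with median deviations of the UPR genes of -0.08 and -0.07. Chow1, with the lowest such deviation (-0.34), had 519 CPM. Plasma cells are rich in ER, and the plasma cell marker JCHAIN had 527, 33.6, 418, 86.9 and 145 CPM in HFr1 to HFr5 and 155, 199, 274, 389 and 694 CPM in Chow1 to Chow5. HFr1 and HFr3 were the highest HFr animals for JCHAIN, and Chow5, the highest of all, had 99.7 CPM of HSPA5.

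The 11 lymphocyte and plasma cell markers together had 52.9 to 547 CPM on HFr and 173 to 718 CPM on chow, and none of the 4 tested had an unadjusted p under 0.05. The 7 tested macrophage markers had fitted changes above 0 and none passed that threshold, with a summed level of 320 to 486 CPM on HFr and 307 to 478 CPM on chow. Of the 6 tested stellate and fibroblast markers, ACTA2 was lower on HFr (log2 fold change -1.57, edgeR unadjusted p = 0.00646), and the 8 markers summed to 224 to 407 CPM on HFr and 180 to 827 CPM on chow. None of the 6 endothelial or 2 cholangiocyte markers tested had an unadjusted p under 0.05, with sums of 187 to 212 and 5.998 to 26.6 CPM on HFr and 137 to 210 and 10.1 to 31.7 CPM on chow. The Pearson correlation of a UPR gene with the mitochondrial share of a library had a median of -0.109 over the 27 genes, from -0.636 to 0.363, and 0.0589 in the ATF6 branch. With the mitochondrial share as a covariate, the 5 genes kept an unadjusted p under 0.05 in edgeR, and 5.11% of all transcripts had such a p.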

How the data were processed

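Polyadenylated RNA of 10 livers was sequenced from 500 ng of total RNA. Paired-end reads of 100 bases were aligned by the authors to ChlSab1.1 with STAR 2.5.3a, as the submitters' notes name it, and they quantified Ensembl release 93 transcripts by expectation-maximization in Partek Flow. The deposited estimated counts were not normalized and were partly fractional. A second deposited table holds signal values that the authors scaled by TMM, used here only for an alternative. Whether strand was used in counting is not given in the sources used here.

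Rounded counts went through filterByExpr (a minimum of 10 counts, and of 15 in total). The diets were then compared in edgeR 4.0.16 (R 4.3.3), using TMM factors, no covariate and the quasi-likelihood test. P-values were adjusted by Benjamini-Hochberg over 7948 transcripts, and the threshold was 0.05. The standard error is the size of the log2 fold change divided by the square root of F. A gene was represented by the transcript with the highest mean count. Correlations used log2(CPM + 1) and 100000 two-sided permutations, adjusted over 26 genes per reference gene. Scripts were tested on simulated data.

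Genes shown in every animal are the sensors, branch transcription factors, HSPA5 and those with an unadjusted p under 0.05 or no overlap. PPP1R15A, ATF3, ASNS and JCHAIN were shown after their values were seen. The UPR genes and lists were chosen with earlier results of these data known. Alternatives were DESeq2 1.42.0, limma 3.58.1 (log2(CPM + 1), log2(CPM + 0.1) and voom weights), the study's equal-variance test, other normalizations and filters, counts summed by symbol or not rounded, robust estimation, mitochondrial transcripts left out or as a covariate, a replicate block and each animal left out. Leaving out the 4 animals under 1200000 nuclear counts was added after seeing the data. Samples of a diet are separate animals. Coordinates count from 1.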

Additional observations from a re-analysis of the deposited data

Results flagged for a closer look

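In 3 of 54 groups of 5 animals, 1 animal lay far from the other 4 of its diet, with a gap to its neighbour over 0.71 of the group's range. Chance gives about 1 such group in 20, and 5.56% were found. CALR had 80.9 CPM in HFr5 against 41.5 to 52.0 CPM in the other HFr animals. HERPUD1 had 215 CPM (214.8) in HFr1 against 86.0 to 116 CPM in the other HFr animals. XBP1 had 825 CPM in Chow3 against 225 to 388 CPM in the other chow animals.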

How the results depend on the processing

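No UPR gene had an adjusted p under 0.05 under any of the 27 alternatives, and over all transcripts 1 did with library size only and 2 with DESeq2. Of the 5 genes with an unadjusted p under 0.05 the direction held under every alternative. Such a p was kept under all 27 by NUCB2, 26 by SDF2L1, 25 by CALR, 23 by CRELD2 and 14 by HSPA5. UPR genes higher at that threshold numbered 3 with library size only, where 1.55% of all transcripts had such a p. They numbered 1 without the 4 animals under 1200000 nuclear counts (3 animals per diet), where 3.37% of all transcripts had it. In that fit the edgeR unadjusted p was 0.0631 for CALR, 0.0552 for CRELD2, 0.1002 for SDF2L1 and 0.244 for HSPA5. Such UPR genes numbered 3 to 7 when each animal was left out, lowest without HFr1 and highest without HFr4. Over these fits 3.22% to 5.06% of all transcripts had such a p, with 3.97% without HFr1 and 4.1% without HFr4. HSPA5 lost this p without HFr1, HFr3, HFr5, Chow1, Chow2, Chow4 or Chow5. The median relation of the UPR genes to ATF4 was 0.741 with library size only, with no value over all transcripts beside it. The mitochondrial share, HFr minus chow, lay between -5.096 and 4.614 percentage points when each animal was left out. The median log2 fold change over all transcripts was -0.0013 with DESeq2 size factors, 0.0075 with upper quartile and -0.011 with library size only. It was -0.0007 in the report's fit and 0.038 with the study's test on its normalized values.

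The sample titles do not say that replicate numbers pair the animals, and no pairing was used in the report's fit. Deviations from the diet mean in same-numbered animals correlated at -0.0376, -0.00524, -0.0429, 0.0986 and -0.287 for numbers 1 to 5. Such correlations cannot tell whether these animals were matched or processed together. With the replicate block 4 UPR genes (CALR, SDF2L1, CRELD2 and NUCB2) had an unadjusted p under 0.05, and 271 transcripts in all. Changes of sign concerned genes with no unadjusted p under 0.05, and the cause was not tested. ATF6B (-0.0002 in the report's fit) was 4.7e-05 with DESeq2 size factors, 0.0097 with upper quartile, 0.0024 without the filter, 9.4e-05 summed by symbol, 0.039 with the block, 0.0987 with the study's test, 0.0757 and 0.0908 with limma at pseudocounts of 1 and 0.1, 0.0455 with voom, 1.9e-05 unrounded and 0.0496 without the low-depth animals. DNAJB9 was -0.0123 with library size only, -0.0288 with the block, -0.0024 with the study's test, -0.0404 and -0.0447 with limma and -0.238 without the low-depth animals. EDEM2 was -0.0067 with the block, -0.0071 and -0.0087 with limma and -0.0191 with voom. Without the low-depth animals HERPUD1 was -0.0804, ERN1 -0.0716 and DERL2 -0.2058. Leaving out each animal gave ranges that crossed 0 for ATF6B (-0.1664 to 0.174), DDIT3 (-0.2737 to 0.0985), DERL1 (-0.1579 to 0.0262), DERL2 (-0.1553 to 0.2343), DNAJB9 (-0.1065 to 0.1954), EDEM2 (-0.0928 to 0.144), HERPUD1 (-0.1477 to 0.2624), SEL1L (-0.356 to 0.0471) and XBP1 (-0.4221 to 0.2312).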

Other observations

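Among all tested transcripts, those with the highest Pearson's r with XBP1 over the 10 animals were DNASE2B (0.940), FGA (0.912), RASGEF1B (0.911), CNIH1 (0.901) and MAN1A1 (0.901), and those with the highest r with ATF4 were NAMPT (0.933), SOD2 (0.924), ATP13A3 (0.923) and GPBP1L1 (0.920). These were picked as the highest of 7947 correlations over animals that differ in depth, and carry no test.

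Of the other pathway genes, CREB3L3, a liver transcription factor cut by the same Golgi proteases as ATF6, was nearest to the unadjusted threshold, and was picked after its values were seen. CREB3L3 had 4.15, 5.83, 3.23, 3.999 and 5.74 CPM in HFr1 to HFr5 and 2.06, 2.85, 4.58, 2.53 and 0.460 CPM in Chow1 to Chow5. All 5 HFr animals were above the chow mean, and Chow3 lay within the HFr range (log2 fold change 0.79, SE 0.38, edgeR unadjusted p = 0.0545, from 1 to 29 counts per animal).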
